A study of Rattus norvegicus with 12 samples.

Results

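Enzymes that write and erase chemical marks on histones and DNA were measured in the forebrain of rats that had met a new environment. The genes were those with a probe set annotated to exactly 1 gene symbol of the form Hdac, Kdm, Kat, Kmt, Dnmt, Tet, Setd, Sirt, Ehmt or Prmt followed by a number, which gave 68 genes of the 14217 that the array names. Each gene was read at its brightest probe set, a probe set being the group of short probes that reports 1 transcript. These 68 genes had 111 probe sets, and 23 of them had more than 1. The study compared male Long Evans rats, 6 weeks old and housed alone for several days, with 1 array per animal. The control group was 6 animals in a standard laboratory cage. The exposed group was 6 animals that spent 3 hours in an environment new to them, furnished with objects varying in shape and colour. The labels give no transgene, drug or surgery in either group, and the labelled purpose was to find genes that rise after the exposure.

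Histone tails carry acetyl and methyl groups that change how tightly DNA is packed and which proteins bind it. Acetyltransferases (Kat) add acetyl groups, and deacetylases (Hdac, Sirt) remove them. Lysine methyltransferases (Kmt, Setd, Ehmt) and arginine methyltransferases (Prmt) add methyl groups, and lysine demethylases (Kdm) remove them. DNA methyltransferases (Dnmt) methylate cytosine, and the Tet dioxygenases oxidise methylated cytosine, a first step of its removal. Several of these enzymes act in neurons on the genes that follow activity, and class IIa deacetylases leave the nucleus when a neuron fires.

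A few of the enzymes had higher RNA in exposed animals and most did not pass the test. Kdm7a, a histone lysine demethylase, was 1.32-fold higher, and the Tet dioxygenase genes Tet3 and Tet2 were 1.35-fold and 1.11-fold higher. Kmt2a, a methyltransferase of active promoters, was 1.28-fold higher, a call at the threshold that 19 of 29 alternatives did not give. Dnmt3b, a DNA methyltransferase, was 1.12-fold lower, at intensities just above the floor set for the fit (53.8, the 20th percentile of all values). No gene of the histone deacetylases, sirtuins, acetyltransferases or arginine methyltransferases passed, out of 10, 6, 7 and 7 genes. Over the array 3.46% of all genes passed, and whether these counts differ from that share was not tested. The test was limma on log2 intensity, fitted to all 31042 probe sets, with a Benjamini-Hochberg adjusted p under 0.05 as the threshold and each change is the exposed mean less the control mean, followed by its standard error.

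By this rule 5 of the 68 genes passed, 4 higher and 1 lower. Over all 14217 genes 3.46% passed, 2.62% higher and 0.844% lower, against 7.35%, 5.88% and 1.47% of these enzymes. The 372 higher and 120 lower genes of the array all lay among the 12673 not at the floor on all arrays. Of the 68 enzymes 59 were brighter than the median probe set, and the part of brightness in these shares was not tested. An unadjusted p under 0.05 was reached by 12 of the 68 (17.6%), close to the 15.9% of all genes, with 9 higher against a background of 8.77% and 3 lower against 7.1%. Every exposed animal lay above every control animal for 4 of the 68, where the background was 2.51% of genes, and below every control animal for 0, where it was 0.9%. The median log2 change was 0.01 over the 67 genes that were measured above the floor and -0.01 over the 12673 such genes of the array. The remaining gene, Kdm4c, lay under the floor on all 12 arrays, so no change can be given for it.

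Facts of the whole series bear on all these values. Median intensity of an array ran from 235 to 245. The activity genes Fos, Egr1, Arc and Nr4a1 were higher in exposed animals (4 of 4 passed). All 11 forebrain markers measured were above the floor, and none of the 11 passed in limma. An unadjusted p under 0.05 was reached by 5 of them, 4 lower and 1 higher, where 15.9% of all genes reached it. Of the 11 changes 7 were below 0 and 4 above. Of 10 midbrain and hindbrain markers, some at the floor on part of the arrays, 8 had changes above 0 and 2 below, none past the threshold. Of the marker lists for other cell types only the endothelial and mural list had a member that passed, Slco1a4. The summed intensity of that list was 8701 to 9577 in control animals and 8154 to 8646 in exposed animals, with 11 of 11 log2 changes below 0. These ran from -0.29 for Slco1a4 (mean intensity 2232 in control and 1833 in exposed animals) to -0.0003 for Pecam1, with a median of -0.07. All 6 meningeal and fibroblast markers also had changes below 0, none past the threshold. In bulk tissue, fewer cells of a type and less RNA per cell cannot be told apart, and the part of these lists in the results below was not tested. RNA quality was read from control probe sets at the 3 prime and 5 prime ends of the same transcripts, whose log2 gap averaged 0.39 ± 0.05 (SD, n = 6) in control animals and 0.45 ± 0.07 after exposure (p = 0.0823, two-sided exact permutation test).

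**Figure D1:**
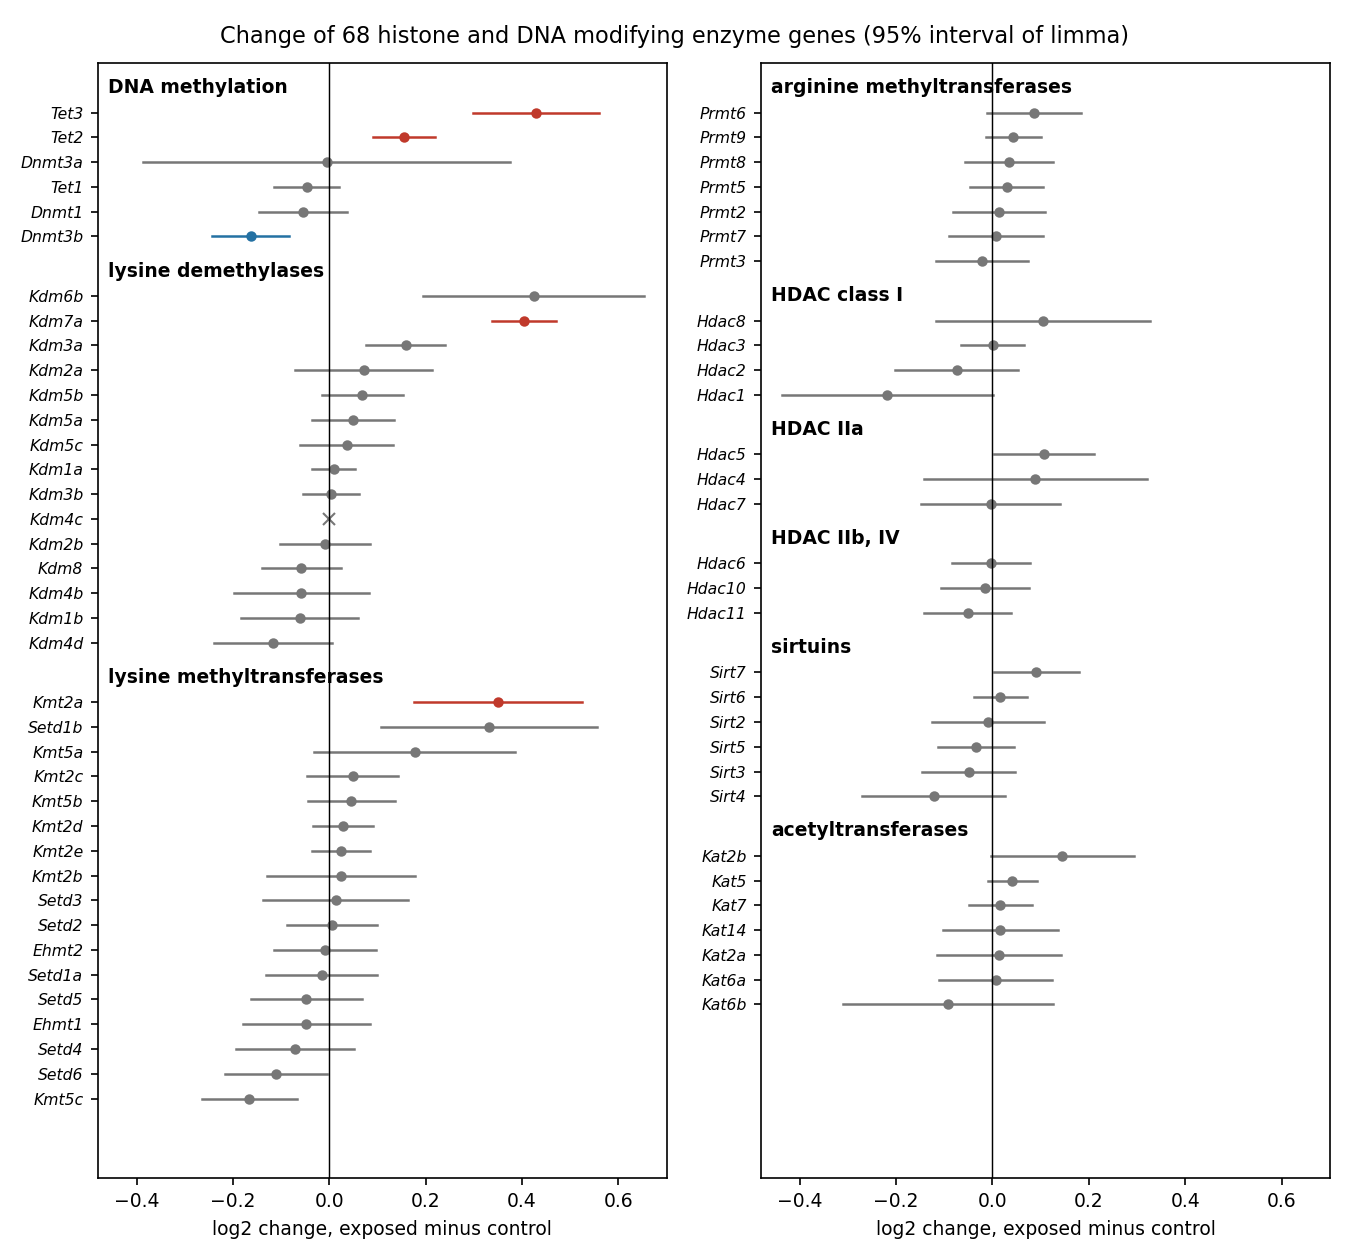
Log2 change (exposed minus control, x axis) of the 68 enzyme genes grouped by role, with points for the limma estimate and lines for its 95% interval. Red marks the 4 genes that passed higher, blue the 1 that passed lower, grey the 63 others, and the cross Kdm4c, which was under the floor on all arrays.

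The sequences before the start sites of Kdm7a, Tet2 and Tet3 are shown, since these are the genes past the threshold for which RefSeq windows were matched. Whether they vary together across animals was not tested. They are the 250 bases before a RefSeq start on the minus strand of build GRCr8, at chr4:68992980-68993229 for Kdm7a, chr2:224746187-224746436 for Tet2 and chr4:117525496-117525745 for Tet3. Capitals mark TGACG, the core of the cAMP response element, read on either strand (its reverse is CGTCA).
Kdm7a: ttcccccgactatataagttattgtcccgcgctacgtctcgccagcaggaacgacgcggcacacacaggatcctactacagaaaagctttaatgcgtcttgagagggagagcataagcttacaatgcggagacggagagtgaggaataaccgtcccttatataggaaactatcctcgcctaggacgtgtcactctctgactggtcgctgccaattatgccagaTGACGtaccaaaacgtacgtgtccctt
Tet2: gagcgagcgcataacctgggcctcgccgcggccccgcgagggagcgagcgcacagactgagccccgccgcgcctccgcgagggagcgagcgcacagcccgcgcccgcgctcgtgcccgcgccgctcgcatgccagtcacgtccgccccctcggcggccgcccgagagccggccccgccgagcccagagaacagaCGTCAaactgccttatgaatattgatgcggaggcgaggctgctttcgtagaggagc
Tet3: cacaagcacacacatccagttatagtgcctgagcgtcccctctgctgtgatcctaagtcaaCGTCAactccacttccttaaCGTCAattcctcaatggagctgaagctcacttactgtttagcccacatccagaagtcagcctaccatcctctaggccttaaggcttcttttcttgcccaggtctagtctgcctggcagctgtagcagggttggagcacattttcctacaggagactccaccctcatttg
The match nearest the start began 27 bases before it in Kdm7a, 56 in Tet2 and 169 in Tet3, which had another at 189. RefSeq lists 4 starts for Kdm7a and 4 for Tet3, and no match lay before the other 3 of Kdm7a or before the 2 inner ones of Tet3, while a start 1 base away from the Tet3 start shown shares its matches. The data do not tell which start was in use. In windows of 300 bases, from 250 before to 50 after a start, TGACG was present in 29 of 79 windows of the enzyme genes (36.7%, 58 genes matched by identifier or symbol) and in 21.2% of all 33469 windows. Windows of a gene can overlap, so 1 gene can add several matches. Counted by gene, TGACG was present for 23 of the 58 and for 6325 of all 27457 genes with windows. Those windows of the enzymes were richer in G and C, at a median of 62.0% against 51.7%. The full element TGACGTCA, which contains TGACG, was in 1 of the 79 windows and in 1.83% of all windows. The E-box CACGTG was in 8.86% of the enzymes' windows and 6.42% of all, and the Egr site GCGTGNGN in 22.8% and 12.7%. By gene, the E-box was present for 7 of the 58 and 1943 of the 27457, and the Egr site for 14 and 3873.

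Of the 6 enzymes of DNA methylation 3 passed, where 3.46% of all genes did. They were Tet3, Tet2 and Dnmt3b, and 19 of 28 alternatives did not call Dnmt3b. Tet3 had a lowest, median and highest intensity of 386, 419 and 464 in control animals and 494, 580 and 612 in exposed animals. The groups did not overlap. Its log2 change was 0.43 ± 0.06 (1.35-fold, adjusted p = 0.00292 in limma, n = 6 per group), with exposed animal 6 the lowest of its group. Tet2 ran from 397 over 427 to 445 in control animals and from 456 over 475 to 488 in exposed animals. These groups also did not overlap, but the change was smaller, 0.15 ± 0.03 (1.11-fold, adjusted p = 0.0178). Tet1, the remaining dioxygenase, had 236, 238 and 248 in control and 221, 234 and 243 in exposed animals, a log2 change of -0.05 that did not pass (95% interval -0.11 to 0.02).

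Whether the Tet genes moved unequally was tested on the log2 difference between them in each animal, a comparison chosen after their values were seen. By then the groups were known not to overlap for Tet3 and Tet2, so the small p-values are no independent support. At the brightest probe sets Tet3 changed by 0.48 more than Tet1, Tet2 by 0.20 more than Tet1 and Tet3 by 0.27 more than Tet2. These sizes depend on the probe set, since the mean over all Tet3 probe sets had a change of 0.26. The exact two-sided permutation p over the 924 assignments of animals was 0.00216, 0.00216 and 0.00433, where 0.00216 is the smallest possible, and 0.00325, 0.00325 and 0.00433 after Benjamini-Hochberg over the 3 pairs.

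Of the 5 genes, Kdm7a, Tet2 and Dnmt3b had 1 probe set each, so no second probe set could be read for them. Tet3 had 3 and Kmt2a had 4, and a second one passed only for Tet3. That probe set, with a mean intensity of 427, went from 349 to 413 in control animals to 429 to 505 in exposed animals, a log2 change of 0.33 ± 0.05 (adjusted p = 0.00849). The dimmest Tet3 probe set (mean 105) had a change of 0.02 ± 0.09 (adjusted p = 1). It was not shown to differ from the brightest one (difference -0.41, adjusted p = 0.201 in limma over 6609 such pairs).

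Of the DNA methyltransferases, Dnmt3b, which sets new methylation, went from 62.3, 67.3 and 71.7 (lowest, median, highest) in control animals to 56.2, 60.4 and 62.6 in exposed animals. The ranges overlapped slightly, with 5 of 6 exposed animals below every control. The log2 change was -0.16 ± 0.04 (adjusted p = 0.0422). All these intensities lie just above the floor of 53.8, and with the floor at the 40th percentile Dnmt3b is at it in both groups. With 1 animal left out the call held only without control 3 or exposed animal 1 and missed in the other 10 fits (adjusted p up to 0.0928), and a fit that includes RNA quality gave an adjusted p of 0.152. Dnmt1, which copies methylation after replication, had a change of -0.05 (95% interval -0.15 to 0.04). Dnmt3a, the main enzyme of new methylation in neurons, varied most of the 6, from 127 to 282 in exposed animals against 187 to 253 in control animals. Its log2 change was -0.01 with an interval from -0.39 to 0.37, too wide to exclude a change of the size seen for Kmt2a.

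**Figure D2:**
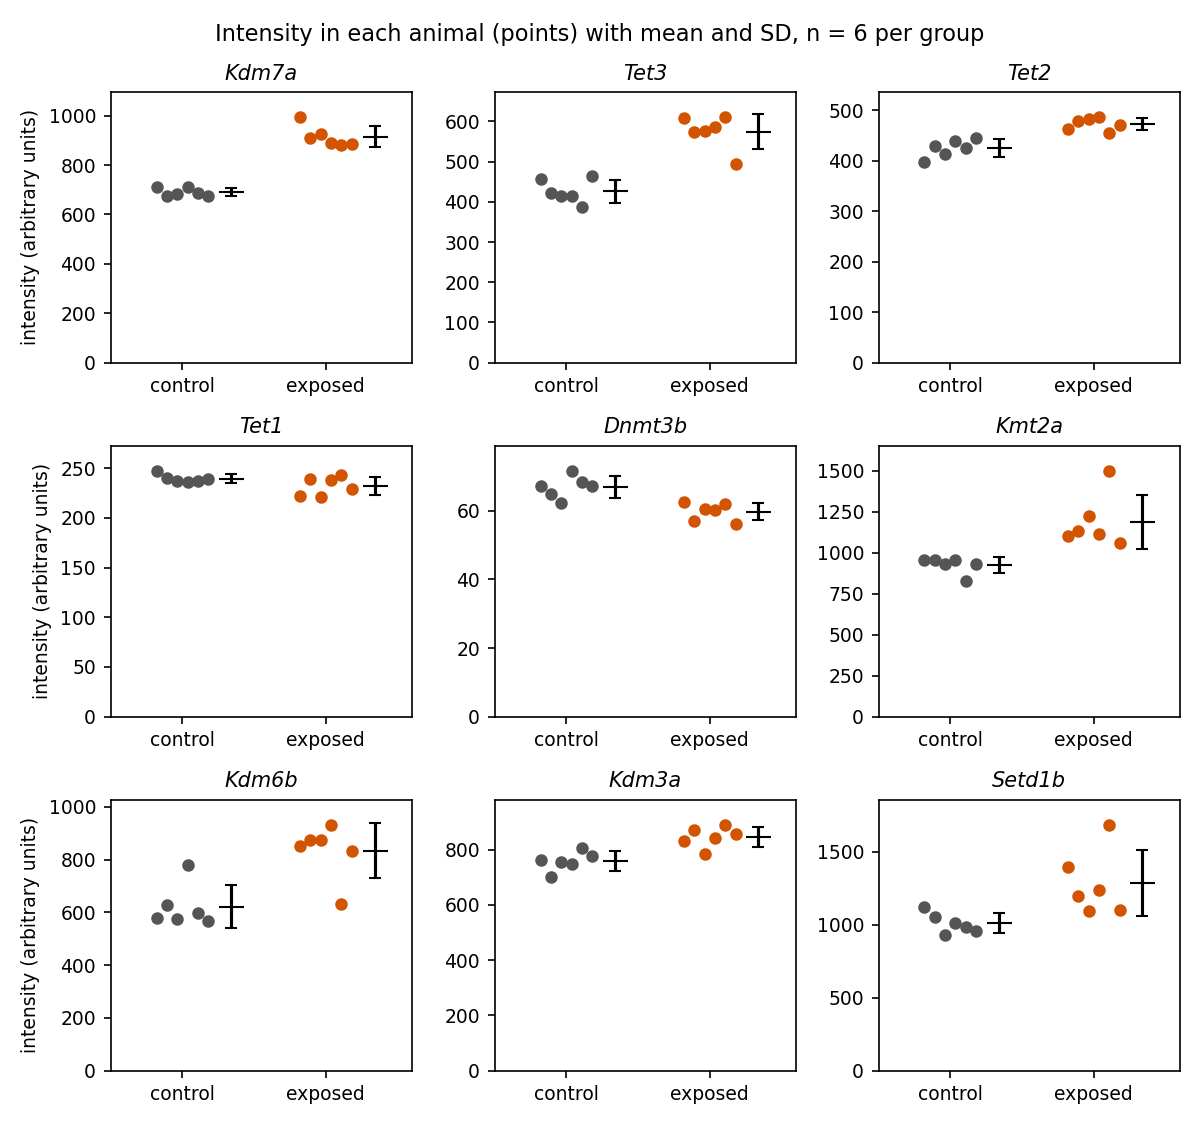
Intensity (y axis, arbitrary linear units from 0) in each of 6 control and 6 exposed animals for 9 genes, with bars for the mean and SD. The groups do not overlap for Kdm7a, Tet3, Tet2 and Kmt2a, and they do for Tet1, Dnmt3b, Kdm6b, Kdm3a and Setd1b.

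Among the lysine demethylases 1 of 15 passed, where 3.46% of all genes did, and it had the smallest p of all 68 genes. Kdm7a, which removes repressive methyl marks from histone tails, had 676, 686 and 712 (lowest, median, highest) in control animals and 882, 899 and 996 in exposed animals. The gap between the groups was wider than the range of either group. Its log2 change was 0.40 ± 0.03 (1.32-fold, adjusted p = 4.18e-05 in limma, n = 6 per group).

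Kdm6b, which removes the methyl mark set by the Polycomb complex, had as large a change, 0.42 ± 0.10, but a wider spread. Control animals had 566, 588 and 781 and exposed animals 632, 864 and 933, so that 5 of 6 exposed animals lay above every control. It missed the threshold (adjusted p = 0.0638). Control 4, with 781, and exposed animal 5, with 632, were the animals nearest the other group. Leaving out either raises the change by construction, and Kdm6b passed in those fits (adjusted p = 0.0212 and 0.0101 in limma). The other 10 fits without 1 animal missed, with adjusted p from 0.105 to 0.140, as did the fit with RNA quality as a covariate (0.128), and 21 of 29 alternatives did not call Kdm6b.

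Kdm3a, a demethylase of a heterochromatin mark, had 700, 759 and 808 in control and 785, 850 and 891 in exposed animals. Its log2 change of 0.16 ± 0.04 fell just short of the threshold (adjusted p = 0.0524), and 19 of 29 alternatives also did not call it. It passed after quantile normalization (0.0313) and after centring each array (0.0356). Of the fits without 1 animal 10 of 12 missed (0.0786 to 0.111). The 2 that passed left out the highest control or the lowest exposed animal (0.0402 and 0.0231), which raises the change by construction. Besides these 3 genes and Kdm4c, the other 11 demethylases, among them Kdm1a, the founding member of the class, and the Kdm2 and Kdm5 genes, had log2 changes from -0.12 to 0.07. For Kdm1a the change was 0.01 with a 95% interval from -0.04 to 0.05. The median over the 14 demethylases above the floor was 0.02.

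Among the lysine methyltransferases 1 of 17 passed, where 3.46% of all genes did. Kmt2a, the founding member of the MLL family that methylates histones at active promoters, had 827, 943 and 958 in control and 1058, 1122 and 1501 in exposed animals. The groups did not overlap, and the highest value was that of exposed animal 5. The log2 change was 0.35 ± 0.08 (1.28-fold, adjusted p = 0.0449 in limma). The call lies at the threshold, and 19 of 29 alternatives did not give it. With 1 animal left out it held only without exposed animal 5 (0.0128) or 6 (0.0383) and missed in the other 10 fits (0.0648 to 0.0936), and it was lost after quantile normalization (0.0575), after centring (0.0503) and with RNA quality as a covariate (0.17). Its 3 dimmer probe sets had changes of 0.00 (mean intensity 293), 0.24 (126) and 0.09 (57.3), none past the threshold, and the mean over its probe sets gave 0.17 (adjusted p = 0.0639). The other members of this family, Kmt2b to Kmt2e, had changes from 0.02 to 0.05.

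Setd1b, which writes the same kind of mark as part of a related complex, had 930, 998 and 1122 in control and 1091, 1217 and 1686 in exposed animals. Exposed animal 5 was again the highest. The log2 change was 0.33 ± 0.10 and did not pass (adjusted p = 0.143), and its paralog Setd1a had a change of -0.02 (95% interval -0.13 to 0.10). Kmt5c, which writes a mark of heterochromatin on histone tails, had 512, 549 and 569 in control and 450, 480 and 539 in exposed animals. With 5 of 6 exposed animals below every control its log2 change was -0.17 ± 0.04 (adjusted p = 0.0892), and 27 of 29 alternatives did not call it. Among fits without 1 animal it passed only without exposed animal 5 (0.0206), the exposed animal nearest the controls, and the other 11 gave 0.0904 to 0.175. Setd6, which also methylates proteins other than histones, had a change of -0.11 ± 0.05 (adjusted p = 0.343). Ehmt1 and Ehmt2, the pair that methylates histones in silent chromatin, had changes of -0.05 and -0.01. The 13 methyltransferases other than Kmt2a, Setd1b, Kmt5c and Setd6 lay between -0.07 and 0.18. The median over the 17 was 0.01.

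None of the 10 histone deacetylases passed in limma, with 1 at an unadjusted p under 0.05, against 3.46% and 15.9% of all genes. None of these deacetylases passed in any of the 29 alternative settings. Hdac5, a class IIa enzyme that holds back genes driven by Mef2 factors, had the smallest p of them. It went from 1226, 1289 and 1340 in control to 1220, 1388 and 1525 in exposed animals (log2 change 0.11 ± 0.05, adjusted p = 0.361), and the groups overlapped. Hdac4, of the same class, had a change of 0.09 (95% interval -0.14 to 0.32). Hdac1, a class I enzyme of several corepressor complexes, had the lowest change of all 68 genes, -0.22 ± 0.10 (adjusted p = 0.384), with 442, 579 and 609 in control and 380, 484 and 524 in exposed animals. Its dimmer probe set had a change of -0.04. Hdac2, the class I enzyme most studied for memory, had a change of -0.07 (95% interval -0.20 to 0.05), Hdac3 of 0.00 (-0.06 to 0.07) and Hdac8 of 0.11 (-0.12 to 0.33). Hdac10 and Hdac11, of classes IIb and IV, had changes of -0.02 and -0.05, and the median over the 10 genes was 0.00.

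The sirtuins use NAD to remove acyl groups. Of these 0 of 6 passed in limma and 1 had an unadjusted p under 0.05, against 3.46% and 15.9% of all genes. That was Sirt7, a nucleolar deacetylase, with 548, 581 and 613 in control and 579, 605 and 669 in exposed animals (log2 change 0.09 ± 0.04, adjusted p = 0.359). Sirt4, which acts in mitochondria and not on histones, had a change of -0.12 ± 0.07 (adjusted p = 0.512). Sirt2, Sirt3, Sirt5 and Sirt6 lay between -0.05 and 0.02.

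Of the acetyltransferases 0 of 7 passed in limma and 0 had an unadjusted p under 0.05, against 3.46% and 15.9% of all genes. Kat2b, known as PCAF, had the largest change, 0.15 ± 0.07 (adjusted p = 0.391), with 1009, 1162 and 1224 in control and 1148, 1222 and 1400 in exposed animals, and Kat6b had -0.09 ± 0.10. Of the arginine methyltransferases 0 of 7 passed and 0 had an unadjusted p under 0.05, Prmt6 with 0.09 ± 0.04 (adjusted p = 0.469) and Prmt9 with 0.04 ± 0.03 (adjusted p = 0.581) having the largest changes. None of these 20 genes passed in any alternative. Over all 68 genes, the 95% interval of the log2 change lay within -0.2 to 0.2 for 45, so that a change beyond 1.15-fold lay outside it, while for the others a change of that size was not excluded. The SD of log2 intensity among control animals ran from 0.03 to 0.19 with a median of 0.07.

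**Figure D3:**
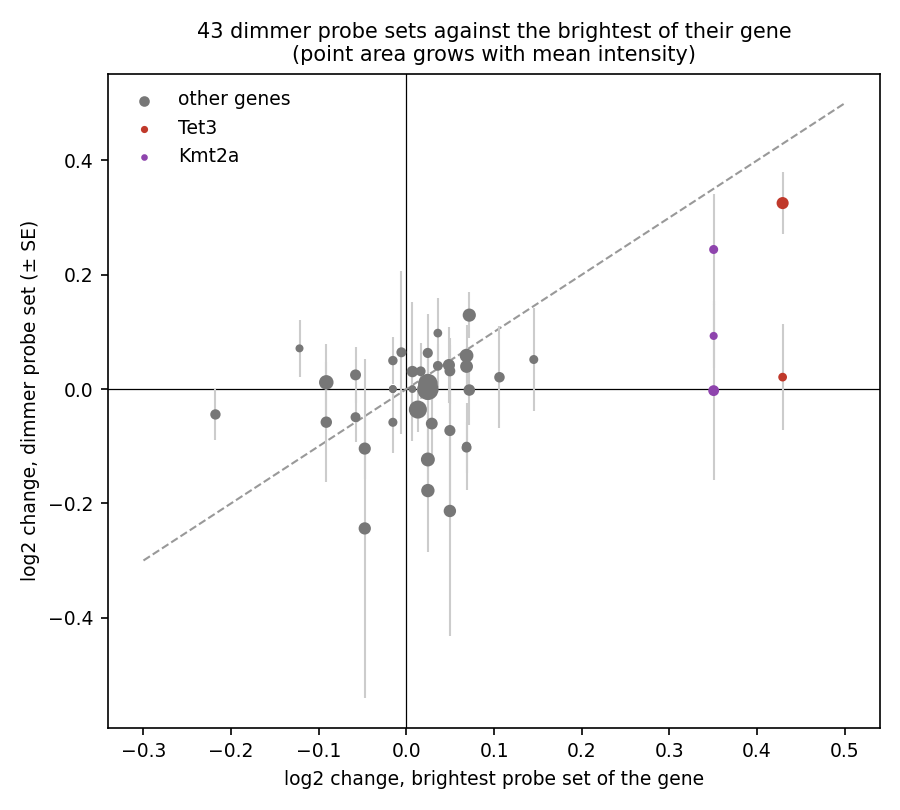
Log2 change (exposed minus control) of the 43 dimmer probe sets (y axis, with SE) against that of the brightest probe set of the same gene (x axis), point area growing with mean intensity. The dashed line marks equal change, and the red point nearest to it is the second Tet3 probe set (0.33 against 0.43).

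Across the 43 dimmer probe sets, 1 passed, the second one of Tet3, where 2.56% of all probe sets on the array passed (1.97% higher and 0.599% lower). No dimmer probe set was shown to differ from the brightest of its gene (smallest adjusted p 0.201), where 0.908% of 6609 pairs on the array did. Kdm5b, with 5 probe sets, showed changes of 0.07, 0.06 and 0.04 at the 3 brighter ones and of -0.10 at both dim ones, none past the threshold. Kdm2a had 0.07 at its brightest probe set. Its dimmer ones had 0.13 ± 0.04 (mean intensity 560, adjusted p = 0.144 in limma) and -0.002 (362).

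Other chromatin genes outside these families were described from 2 lists. Among 41 genes of a list of further writers, erasers and genes that act with them, 6 passed, all higher, against the background of 2.62%. The lists were chosen with earlier results of these data known, so counts in them are a description. Gadd45b and Gadd45g, which take part in DNA demethylation and stress signalling, were 2.26-fold and 1.41-fold higher (adjusted p = 2.72e-05 and 0.00592). Dot1l, a histone methyltransferase without the usual SET domain, was 1.30-fold higher (adjusted p = 0.0443), the hydroxylase gene Jmjd6 1.19-fold (0.0105), the oxygenase gene Riox1 1.16-fold (0.0129) and Jarid2, a partner of the Polycomb complex, 1.14-fold (0.0160). The median log2 change of this list was 0.04. Among 70 readers, corepressors and complex subunits 0 passed in limma, where 3.46% of all genes did. An unadjusted p under 0.05 was reached by 4 of the 70, where 15.9% of all genes reached it, and their median change was -0.01.

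**Figure D4:**
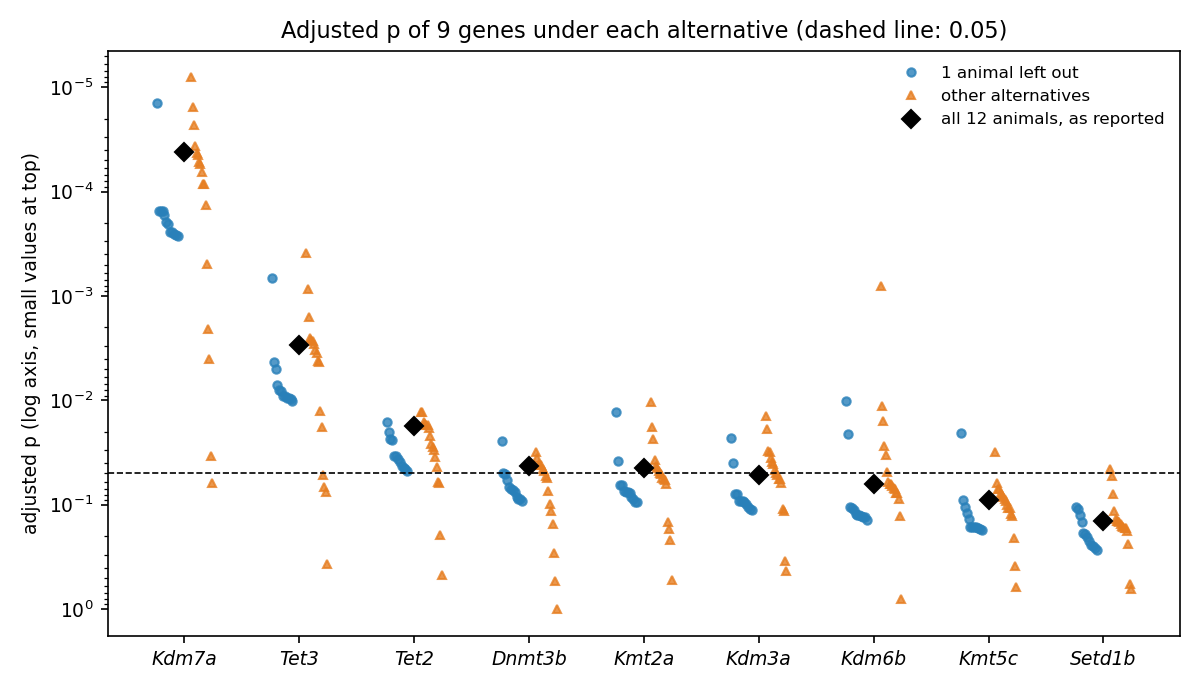
Adjusted p (y axis, log scale with small values at the top) of 9 genes with all 12 animals (diamonds), with 1 animal left out (12 blue circles) and under the other alternatives (orange triangles). Kdm7a, Tet3 and Tet2 stay above the dashed line at 0.05 in each of the 12 fits with 1 animal left out, whereas Dnmt3b and Kmt2a do so in 2 of 12.

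The calls of Kdm7a, Tet3 and Tet2 held in 12 of 12 fits with 1 animal left out, with a largest adjusted p of 0.000266, 0.0101 and 0.0477. Their log2 changes in these fits ran from 0.38 to 0.41, from 0.40 to 0.47 and from 0.14 to 0.17. With RNA quality as a covariate the 3 genes also passed (adjusted p = 0.000493, 0.0180 and 0.0440). Without control 4 and exposed animals 3 and 5, which earlier results of these data set apart, Kdm7a passed (adjusted p = 0.00206 in limma). Tet3 (0.0516) and Tet2 (0.0615) did not pass in that fit, at changes of 0.40 and 0.17. Kdm6b passed (0.000795, change 0.57), but control 4 and exposed animal 5 were its animals nearest the other group. Leaving both out raises its change by construction, so this pass is no support for a change of Kdm6b.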

How the data were processed

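Total RNA of the forebrain of 12 rats was extracted with Trizol and column cleanup and labelled by the standard Affymetrix procedure, per the labels' protocols. Deposited values are linear intensities, 1 for every array and probe set (12.6 to 34828). The sources used here do not state the authors' background correction, probe summary or normalization. Array medians differed by at most 0.06 and upper quartiles by 0.07 on the log2 scale, below the 0.1 at which arrays would have been normalized again. Labels that name separate animals set the groups, and the number of arrays limits the precision.

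Values under the 20th percentile (53.8) were set to it as a floor, and all were put on the log2 scale and fitted with the group as the only term in limma 3.58.1 (R 4.3.3, eBayes with a trend). Benjamini-Hochberg adjustment ran over 31042 probe sets, leaving out 57 array controls. The fit was also run on simulated data with independent normal errors, with changes added only to probe sets well above the floor. Its outcome is not reported here, and it cannot speak for genes near the floor or for animals that stand apart. Platform annotation, dated and not updated, gave 1 symbol to 20826 probe sets, several to 436 and none to 9780. Hdac9, Prmt1 and Sirt1 are not analysed here. Genes named are those past the threshold, those with an unadjusted p under 0.05 and the 2 largest changes per role, with others added for their known role after values were seen. The genes and lists were chosen with earlier results of these data known. Promoter windows are those of RefSeq (GRCr8). Alternatives covered the floor, scaling, filters on dim probe sets, the variance model, array weights, covariates, the replicate number as a block, probe set choice and left-out animals.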

Additional observations from a re-analysis of the deposited data

Results flagged for a closer look

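In 6 of 44 groups of 6 animals examined (22 named genes), 1 animal stood apart from the other 5 of its group by a gap larger than Dixon's 95% limit for 6 values, as a share of the group's range on the log2 scale. Chance alone gives about 5% of groups. Control 4 was the lowest for Hdac11 (gap 0.719 of the range, intensity 2704 against 3020 to 3153) and the highest for Kdm6b (0.679, 781 against 566 to 628). Exposed animal 5 was the lowest for Kdm6b (0.712, 632 against 834 to 933) and for Hdac4 (0.678, 336 against 466 to 545). Control 5 was the lowest for Kmt2a (0.810, 827 against 931 to 958), and exposed animal 6 was the lowest for Tet3 (0.694, 494 against 573 to 612).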

How the results depend on the processing

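Of 636 values of the 22 named genes under up to 29 alternatives, 566 kept their direction and side of the threshold, 47 lost a call, 21 gained one and 2 changed sign. The sign changes were those of Hdac10, 0.00153 without control 2 and 0.00304 without control 5, within a range from -0.0440 to 0.00304 over the fits without 1 animal. Kdm7a, Tet2 and Tet3 passed together in 25 of 29 alternatives. With array weights 7 enzyme genes were higher, against 4, and 314 probe sets lower, against 186. With the replicate number as a block 1 enzyme gene was higher (Kdm7a, adjusted p = 0.00398), with 359 probe sets higher and 76 lower. The labels do not say that a number pairs animals, the correlation of deviations ran from -0.04 to 0.13 over the 6 numbers, and 2 of 6 animals matched their own number best. Animals numbered 1 to 3 alone gave 1 higher enzyme gene (Kdm6b), 66 probe sets higher and 9 lower, and those numbered 4 to 6 gave 1 (Kdm7a), 31 and 2, at 3 animals per group. The count of lower enzyme genes, 1 (Dnmt3b), was 0 with the floor at the 40th percentile, after centring, without the 40% dimmest probe sets (where Dnmt3b was not tested), with robust eBayes, with the replicate block, with RNA quality as a covariate, within either number set, and without control 4 and exposed 3 and 5. Dnmt3b itself was not called in 19 of 28 alternatives, among them array weights (adjusted p = 0.0743), where the 1 lower enzyme gene was Kmt5c (0.0312). The RNA quality covariate left 72 lower probe sets, and leaving out those 3 arrays left 82. With 1 animal left out, 3 to 5 enzyme genes were higher and 0 to 1 lower, and 451 to 622 probe sets were higher and 103 to 182 lower. The cause of these shifts was not tested. Dnmt3b, Kmt2a's dimmest probe set and Kdm4c are limited by signal near the floor.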
